A study of Mus musculus with 15 samples.

Results

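The 47 genes described here drive or carry out the cell division cycle, from the G1 cyclins through DNA replication to the mitotic spindle. They were taken by name from a list of cell cycle and DNA replication genes, and all 47 were found among the 55849 gene rows of the expression table. Their levels were read in 15 RNA-seq libraries of mouse liver, 5 labelled young control, 5 labelled aged control and 5 labelled with both the compound KSL0608-Se and irradiation. The series concerns a light-activated removal of senescent cells, and KSL0608-Se is known here only by its code name. Libraries are named below by group (young, aged or treated) and replicate number. Beyond tissue, group and replicate number the labels state nothing: no age, sex, strain, dose or light setting, and for treated mice not whether they were young or aged. No group given the compound without light or light without the compound was analysed here.

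A cell that leaves rest raises D-type cyclins, which with Cdk4 relieve the Rb proteins' hold on E2F transcription factors. E2F then switches on the genes that license and copy DNA, and a later wave driven by B-MYB and FOXM1 switches on the mitotic genes. Hepatocytes of the adult liver are almost all at rest, so transcripts of the later waves are scarce in whole liver, and lymphocytes, plasmablasts and macrophages that divide in the tissue can contribute to them. Loss of Lmnb1 and of proliferation transcripts is a textbook feature of senescent cells.

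The clearest feature of these genes was a single library, aged 5. It held the highest value of the 15 libraries for 38 of the 47 genes, and for 25 of the 31 that passed the expression filter described below, where 11.1% of all genes tested were highest in that library. Its level was over 2 times that of the next library for 27 of the 47 genes and for 15 of the 31 tested, against 2.03% of all genes tested. Treated 2 to 5 came next. The summed level of the 18 mitotic and spindle genes was 21.9 to 33.9 TPM (a gene's share of the transcripts in its library, corrected for gene length) in treated 2 to 5 and 11.2 in treated 1. It was 9.13 to 10.8 TPM in young livers and 123 in aged 5. None of the 31 genes tested passed the test between groups in the model of all 15 libraries used throughout, so the differences below are levels and not calls unless a call is named. Other settings gave calls for a few genes in treated against young, named with that comparison. Young 4 was the lowest library for 26 of the 47 genes, and it also had the highest mitochondrial share of TPM, 11.0% against 3.58 to 9.46% in the other libraries. The share of all genes lowest in young 4 was not counted. Genes above 1 TPM in every library stood in young 4 at a median of 0.73 of their geometric mean over the 15 libraries, against 0.84 to 1.13 in the others. Low values in young 4 were thus not confined to these 47 genes.

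**Figure D1:**
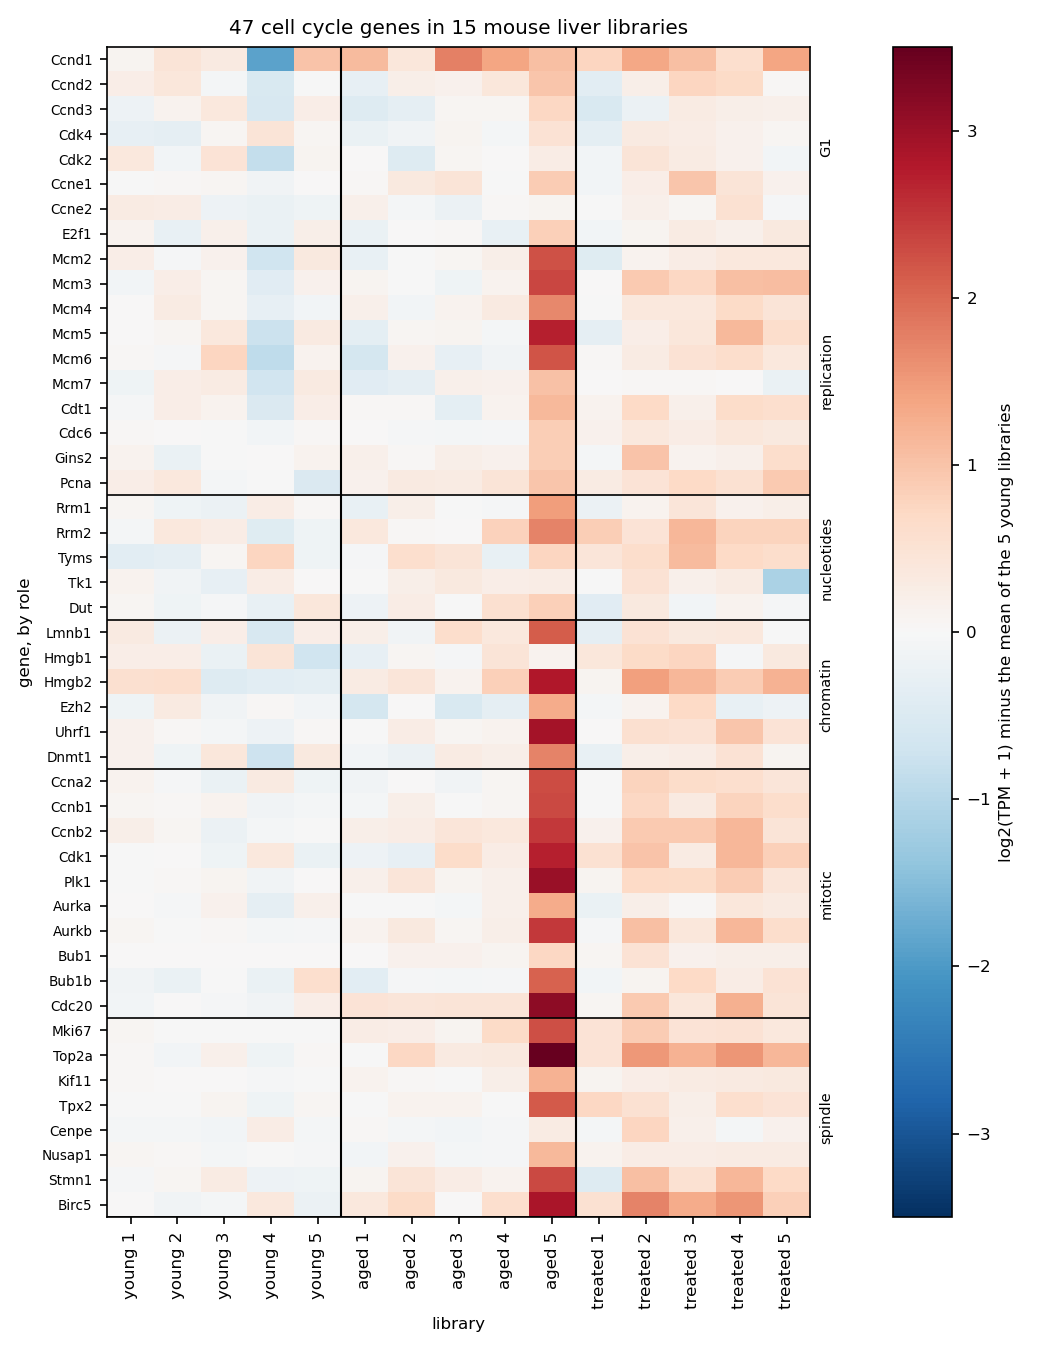
Heat map of the 47 genes by role (rows) in the 15 libraries (columns), as log2(TPM + 1) minus the mean of the 5 young libraries for the same gene. The column of aged 5 is the darkest red in most rows from the replication genes downwards, treated 2 to 5 are paler red in the mitotic and spindle genes, and young 4 is blue in many G1 and replication genes.

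Levels below are TPM, and differences are given on the log2(TPM + 1) scale, which understates the change of genes with low values. A gene was tested if its mean over the 15 libraries was at least 1 TPM. Of the 47 genes, 31 passed, with E2f1 the lowest at a mean of 1.00, and 16 did not, with Uhrf1 and Ccnb2 the nearest at 0.909. Only 25 of the 31 had a mean of at least 1 TPM in young livers. Mcm4, E2f1, Aurka, Cdc20, Top2a and Birc5 passed on the strength of the other groups, so a count over the 31 tested genes leans toward higher values in aged or treated livers. The same 31 genes were kept in filtered fits that left libraries out, even where a gene had passed through a library left out. In whole liver, more cells of a dividing type and more RNA per cell cannot be told apart.

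Promoters of cell cycle genes are known to hold the sites through which these waves of transcription run. RefSeq windows on GRCm38.p6, from 250 bases before to 50 bases after the gene start, were found for 37 of the 47 genes, in 43 windows. They were searched on both strands for the CCAAT box (CCAAT, bound by NF-Y), for the cell cycle genes homology region, or CHR (TTTGAA), and for an E2F site (TTTCCCGC, TTTCGCGC, TTTGCCGC or TTTGGCGC). A CCAAT box was in 69.8% of the 43 windows and in 37.4% of all 32851 windows, and an E2F site in 25.6% and 2.26%. The CHR was in 27.9% of the windows of these genes and in 17.9% of all windows. Among the 10 mitotic cyclin, kinase and checkpoint genes, 8 had a window, all 8 windows held a CCAAT box and 6 a CHR, whereas the E2F site was in 6 of the 9 windows of the replication genes. None of the 5 windows of the nucleotide supply genes held a CHR or an E2F site. A match in these letters is a description of the window and not a measured binding site. The windows of 3 mitotic genes that stood high in aged 5, of the replication gene Mcm5 and of the nucleotide gene Tyms are printed because they show these arrangements, with the matched letters in capitals on the gene's own strand, 5′ to 3′. A CCAAT box on the other strand reads ATTGG.
Ccnb2 (chr9:70421505-70421804, minus strand): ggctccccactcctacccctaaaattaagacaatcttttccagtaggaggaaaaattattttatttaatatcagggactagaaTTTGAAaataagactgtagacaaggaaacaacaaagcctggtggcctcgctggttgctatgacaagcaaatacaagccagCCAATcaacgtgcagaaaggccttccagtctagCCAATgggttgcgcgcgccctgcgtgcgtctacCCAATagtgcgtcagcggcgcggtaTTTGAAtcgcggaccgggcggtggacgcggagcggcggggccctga
Cdk1 (chr10:69352863-69353162, minus strand): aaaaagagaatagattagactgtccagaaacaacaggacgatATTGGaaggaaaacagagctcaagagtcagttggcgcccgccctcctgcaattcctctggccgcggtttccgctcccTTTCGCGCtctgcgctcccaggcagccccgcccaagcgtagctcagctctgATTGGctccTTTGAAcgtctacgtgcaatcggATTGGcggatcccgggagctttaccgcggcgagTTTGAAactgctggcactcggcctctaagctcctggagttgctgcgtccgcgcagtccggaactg
Plk1 (chr7:122159185-122159484, plus strand): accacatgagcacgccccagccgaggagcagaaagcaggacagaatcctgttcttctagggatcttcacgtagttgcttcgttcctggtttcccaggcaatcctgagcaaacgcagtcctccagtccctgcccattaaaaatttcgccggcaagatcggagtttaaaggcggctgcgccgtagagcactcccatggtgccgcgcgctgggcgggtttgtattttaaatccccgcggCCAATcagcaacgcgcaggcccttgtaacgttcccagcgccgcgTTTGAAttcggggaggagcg
Mcm5 (chr8:75109259-75109558, plus strand): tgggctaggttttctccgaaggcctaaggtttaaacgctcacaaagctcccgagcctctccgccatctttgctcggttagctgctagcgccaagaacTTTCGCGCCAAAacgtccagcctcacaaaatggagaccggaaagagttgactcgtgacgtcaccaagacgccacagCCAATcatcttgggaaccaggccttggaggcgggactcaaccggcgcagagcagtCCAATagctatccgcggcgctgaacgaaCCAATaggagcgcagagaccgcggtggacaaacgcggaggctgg
Tyms (chr5:30073576-30073875, minus strand): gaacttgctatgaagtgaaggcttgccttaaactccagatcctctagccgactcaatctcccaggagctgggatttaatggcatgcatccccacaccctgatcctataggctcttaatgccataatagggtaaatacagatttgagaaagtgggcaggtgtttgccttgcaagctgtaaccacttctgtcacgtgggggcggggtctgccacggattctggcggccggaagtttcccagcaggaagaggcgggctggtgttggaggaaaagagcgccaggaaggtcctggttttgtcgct
Ccnb2 had 3 CCAAT boxes, beginning at positions -87, -54 and -21 from the gene start, with a CHR at position 5 and another farther upstream. Cdk1 had CCAAT boxes at positions -80 and -48, CHRs at -71 and -15, an E2F site at -131 and another CCAAT box at -208, and Plk1 had a CCAAT box followed by a CHR. In Mcm5 the capitals hold 2 E2F matches that overlap each other on opposite strands, and in Tyms none of the 3 motifs was found.

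Genes of the G1 phase did not peak sharply in aged 5. Cdk4, the kinase that D-type cyclins activate, stood at 21.01, 20.68, 27.24, 35.38 and 26.92 TPM in young, 21.75, 23.64, 27.81, 24.75 and 36.89 in aged and 19.94, 32.20, 31.04, 28.67 and 27.09 in treated libraries. The groups overlapped throughout, and the log2 difference was 0.04 for aged against young (SE 0.18) and 0.05 for treated against aged (SE 0.18). Exons of Cdk4 overlap those of Tspan31 on the other strand, which stood at 156 to 215 TPM, and with no statement of strand in the counting, reads from the 2 genes cannot be told apart. Such an overlap with a protein-coding gene holds for 12 of the 47 genes. The partner averaged above 40 TPM for 4 of them, Cdk4, Mcm7, Tk1 and Cdc20. The others are Ccnd1, Ccnd3, Cdk2, Ccne2, Gins2, Hmgb1, Ccna2 and Nusap1. Their partners include LTO1 for Ccnd1 (5.68 to 12.98 TPM), Ints8 for Ccne2 (1.71 to 6.09) and Exosc9 for Ccna2 (3.8 to 7.97). Ccnd1, the D-type cyclin most responsive to growth signals in hepatocytes, stood at 14.24, 18.40, 16.81, 2.90 and 27.20 TPM in young, 29.67, 17.80, 46.81, 36.17 and 28.55 in aged and 22.81, 35.13, 28.44, 20.20 and 35.95 in treated libraries. Young 4 at 2.90 was far below the rest, and aged 3 at 46.81 was the highest, so aged 5 did not lead here. Ccnd1 had the largest difference of the 31 tested genes for aged against young, 1.14 (SE 0.42, adjusted p = 0.355), and it was 1.16 without aged 5 and 0.70 without young 4, aged 5 and treated 1. For treated against young the difference was 1.02 (SE 0.42, adjusted p = 0.209), and for treated against aged it was −0.12. Cdk2, which pairs with cyclins E and A at the start of replication, stood at 5.10, 3.42, 5.59, 1.68 and 4.05 TPM in young, 3.78, 2.44, 4.01, 3.77 and 4.72 in aged and 3.46, 5.43, 4.76, 4.28 and 3.40 in treated libraries. Its highest value, 5.59, was in a young library, and its lowest, 1.68, was in young 4. The other G1 genes were Ccnd2 with group means of 1.48 to 2.07 TPM, Ccnd3 with 25.6 to 26.7, the transcription factor E2f1 with 0.872 to 1.09, and the E-type cyclins Ccne1 and Ccne2, which stayed at or below 1.12 TPM in every library and were not tested. Relative to the mean of aged 1 to 4, aged 5 ranged from 0.875 for Ccnd1 to 3.74 for Ccne1, with a median of 1.67 over the 8 genes. In no G1 gene was aged 5 more than 2 times the next library.

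**Figure D2:**
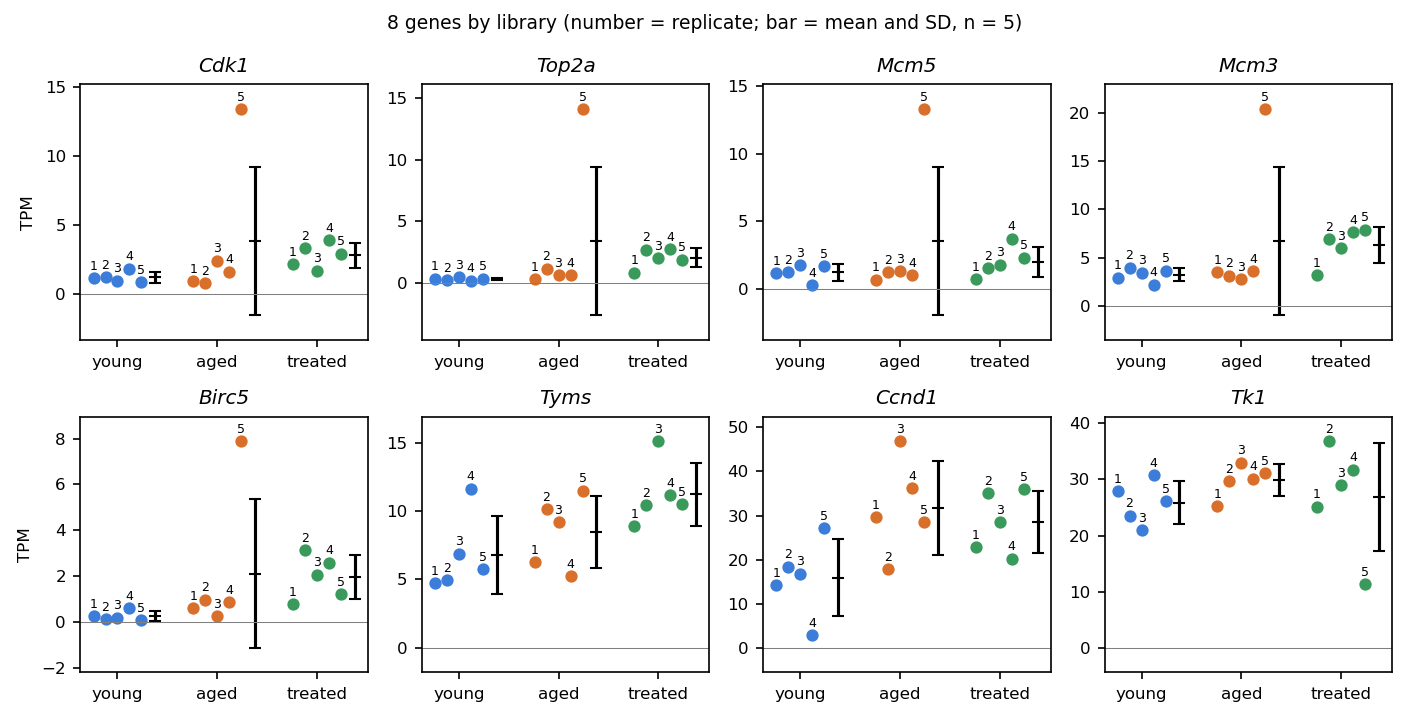
TPM of 8 genes in each library (points, numbered by replicate), with the mean and SD of each group of 5 (bars). Aged 5 lies far above every other library for Cdk1, Top2a, Mcm5, Mcm3 and Birc5, but not for Tyms, Ccnd1 or Tk1.

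Replication genes were the first class in which aged 5 stood apart. The Mcm2 to Mcm7 proteins form the ring helicase that is loaded on DNA in G1 and unwinds it in S phase. Mcm5 stood at 1.16, 1.25, 1.76, 0.27 and 1.68 TPM in young, 0.69, 1.27, 1.30, 1.04 and 13.27 in aged and 0.72, 1.52, 1.81, 3.72 and 2.32 in treated libraries. Mcm2 stood at 1.66, 1.22, 1.53, 0.39 and 1.89 TPM in young, 0.90, 1.23, 1.36, 1.60 and 9.56 in aged and 0.70, 1.47, 1.69, 1.93 and 1.95 in treated libraries. In both genes aged 5, at 13.27 and 9.56 TPM, was above every other library, and the other 14 libraries overlapped between groups, with treated 4 the next highest in Mcm5 at 3.72. Mcm5 had a log2 difference of 0.50 for aged against young (SE 0.48, adjusted p = 0.971), which became −0.06 without aged 5, and Mcm2 went from 0.44 to −0.01. Mcm3, Mcm4 and Mcm6 shared the peak in aged 5, at 20.36, 5.20 and 11.85 TPM against at most 7.90, 2.09 and 3.71 in any other library. Mcm3 stood at 2.96, 3.98, 3.45, 2.22 and 3.67 TPM in young, 3.50, 3.16, 2.80, 3.62 and 20.36 in aged and 3.23, 6.89, 5.98, 7.67 and 7.90 in treated libraries. Treated 2 to 5 at 5.98 to 7.90 TPM were above every young library at 2.22 to 3.98 and above aged 1 to 4 at 2.80 to 3.62, and treated 1 at 3.23 was not. The log2 difference of Mcm3 for treated against young was 0.75 (SE 0.38, adjusted p = 0.317). Mcm7 was the least variable, at 4.26 to 9.33 TPM outside aged 5 and 16.05 in it, and its exons overlap those of Cops6, which stood at 65.7 to 90.7 TPM on the other strand.

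Pcna, the sliding clamp of the replication fork that also serves DNA repair, was the most abundant gene of the class at 19.56, 21.61, 15.76, 16.29 and 11.46 TPM in young, 18.48, 20.84, 20.48, 23.10 and 33.33 in aged and 20.32, 23.61, 27.42, 24.65 and 32.23 in treated libraries. Aged 5 at 33.33 and treated 5 at 32.23 were the highest libraries, and 4 of the 5 treated libraries were above every young one, the exception being treated 1 at 20.32. The differences of Pcna were 0.43 for aged against young (SE 0.19, adjusted p = 0.504), 0.15 for treated against aged (SE 0.19, adjusted p = 0.935) and 0.58 for treated against young (SE 0.19, adjusted p = 0.111). Among the licensing factors, Cdt1, which loads the helicase, averaged 1.07 ± 0.397 TPM in young and 1.82 ± 0.525 in treated libraries (SD, n = 5 each), with aged 5 at 3.45. Cdc6, its partner in loading, stood at 0 to 0.11 TPM in young, at 0.03 to 0.09 in aged 1 to 4, at 0.95 in aged 5 and at 0.19 to 0.41 in treated libraries. Every treated library was thus above every young one for Cdc6, at levels too low to enter the test. Gins2, a subunit of the active helicase, was highest in treated 2 at 4.12 TPM, ahead of aged 5 at 3.70.

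Nucleotide supply genes varied less, and not in a common pattern. Rrm2, the S phase subunit of ribonucleotide reductase, stood at 1.39, 2.29, 2.04, 0.90 and 1.27 TPM in young, 2.25, 1.61, 1.55, 3.44 and 7.49 in aged and 3.57, 2.53, 4.66, 3.35 and 3.37 in treated libraries. Every treated library lay above every young one, although treated 2 at 2.53 and young 2 at 2.29 were close, and aged 5 was again the highest. Rrm2 had a difference of 0.81 for treated against young (SE 0.28, adjusted p = 0.132) and of 0.60 for aged against young (SE 0.28, adjusted p = 0.565), which was 0.31 without aged 5. Tyms, which makes thymidylate, stood at 4.73, 4.94, 6.87, 11.63 and 5.77 TPM in young, 6.25, 10.16, 9.20, 5.25 and 11.48 in aged and 8.90, 10.41, 15.09, 11.18 and 10.49 in treated libraries. Treated 3 at 15.09 was the highest, and young 4 at 11.63 was above aged 5, so Tyms did not follow the mitotic genes, and the difference for treated against young was 0.69 (SE 0.24, adjusted p = 0.130). Tk1, the salvage thymidine kinase, stood at 27.96, 23.52, 21.02, 30.82 and 26.09 TPM in young, 25.25, 29.68, 33.00, 30.16 and 31.11 in aged and 25.18, 36.78, 29.02, 31.73 and 11.38 in treated libraries. The 3 groups overlapped, and treated 5 at 11.38 TPM was far below the next lowest library, young 3 at 21.02. Exons of Tk1 overlap those of Afmid, a kynurenine pathway gene on the opposite strand, which was also lowest in treated 5, at 48.30 TPM against 80.16 to 174 TPM in the others, and reads of the 2 genes cannot be told apart. Rrm1, the large reductase subunit, stood at 11.39 TPM in aged 5 and at 2.71 to 5.02 in the other 14 libraries. Dut, which clears dUTP, stood at 4.25 to 11.40 TPM with aged 5 at the top.

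Chromatin genes held both even and uneven members. Hmgb1, an abundant chromatin architectural protein that most cells express, stood at 64.26, 64.31, 46.43, 74.70 and 33.46 TPM in young, 44.32, 57.70, 53.22, 75.00 and 59.21 in aged and 72.25, 88.04, 91.93, 52.70 and 69.72 in treated libraries. Aged 5 lay within the range of every group, and treated libraries averaged 74.9 ± 15.7 TPM against 56.6 ± 16.5 in young ones (SD, n = 5 each; log2 difference 0.43, SE 0.21, adjusted p = 0.313). Hmgb2, its relative linked to dividing cells, stood at 2.09, 2.19, 0.55, 0.64 and 0.66 TPM in young, 1.59, 1.84, 1.30, 2.74 and 13.64 in aged and 1.24, 4.65, 3.72, 2.89 and 3.94 in treated libraries. Aged 5 was 2.93 times the next library, treated 2 to 5 were above every young library, and treated 1 was not. Lmnb1, the B-type lamin of the nuclear envelope, stood at 3.09, 1.83, 2.86, 1.21 and 2.85 TPM in young, 2.78, 2.00, 3.98, 3.23 and 13.16 in aged and 1.64, 3.70, 3.19, 3.23 and 2.27 in treated libraries. Only aged 5 stood out, and the difference for aged against young, 0.63 (SE 0.33, adjusted p = 0.653), was 0.26 without it. Treated libraries overlapped both control groups for Lmnb1, with a difference of −0.45 from aged ones (SE 0.33, adjusted p = 0.925), which was −0.08 without aged 5. Uhrf1 and Dnmt1, which copy DNA methylation to the new strand, stood at 7.90 and 11.77 TPM in aged 5 and at most at 1.32 and 4.41 elsewhere. Ezh2, the Polycomb methyltransferase, was at 5.01 TPM in aged 5, whereas aged 1, 3 and 4 at 0.59 to 0.95 lay below the young range of 1.21 to 2.03.

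**Figure D3:**
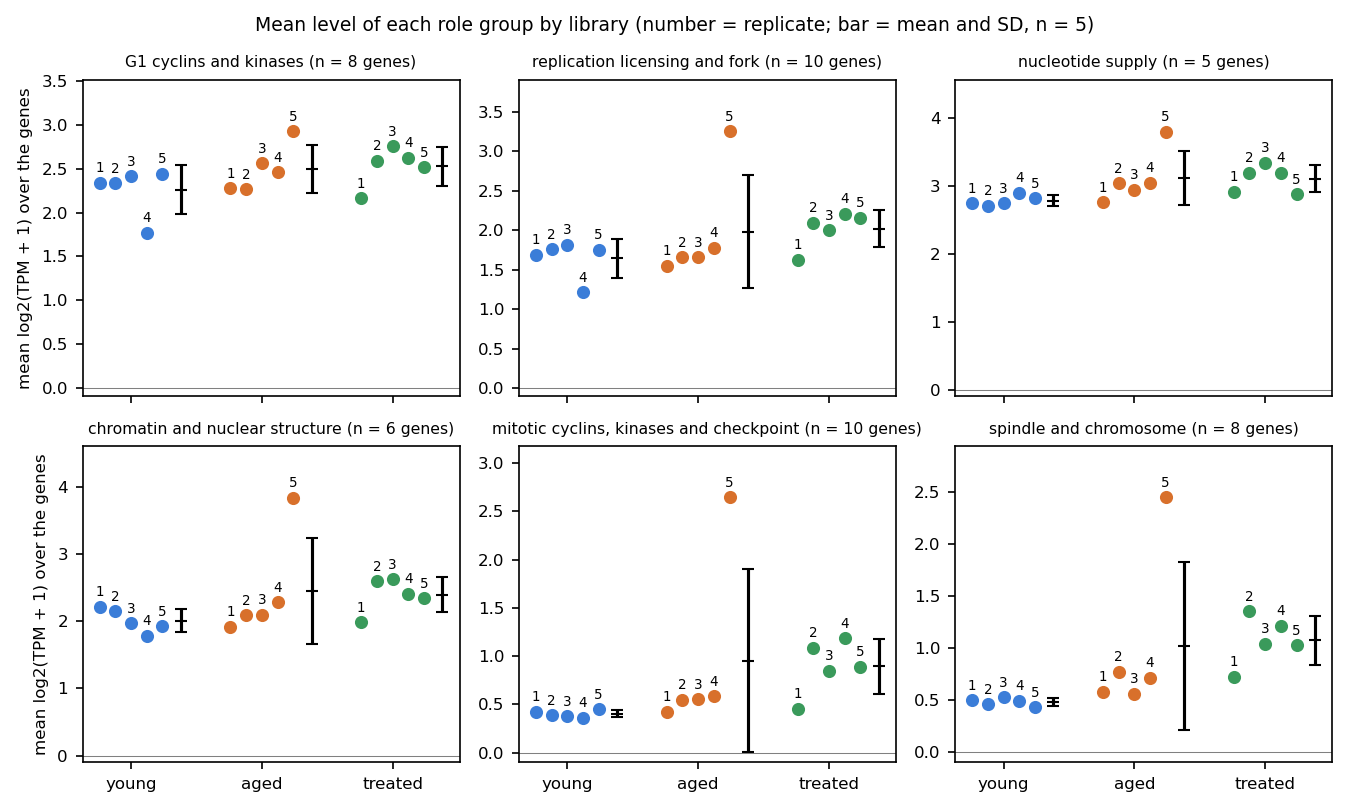
Mean log2(TPM + 1) over the genes of each role in each library (points, numbered by replicate), with the mean and SD of each group of 5 (bars). Aged 5 is the top point in every panel, and its distance from the other libraries is widest for the mitotic genes, 2.65 against at most 1.19, and narrowest for the G1 genes, 2.93 against at most 2.75.

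Mitotic cyclins, kinases and checkpoint genes stood near the bottom of the scale in most libraries, and only Cdk1, Aurka and Cdc20 of the 10 reached the test. Cdk1, the kinase that drives entry into mitosis, stood at 1.16, 1.23, 0.98, 1.86 and 0.87 TPM in young, 0.95, 0.80, 2.44, 1.64 and 13.41 in aged and 2.18, 3.35, 1.70, 3.93 and 2.94 in treated libraries. Aged 5 was 9.20 times the mean of aged 1 to 4, and every treated library except treated 3 at 1.70 was above the highest young value of 1.86. The differences of Cdk1 were 0.63 for aged against young (SE 0.43, adjusted p = 0.832), 0.13 for treated against aged (SE 0.43, adjusted p = 0.985) and 0.77 for treated against young (SE 0.43, adjusted p = 0.369). Without aged 5 the aged-against-young difference of Cdk1 was 0.11 and the treated-against-aged one 0.65 (SE 0.23 each).

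Cdc20, the activator of the anaphase-promoting complex, stood at 0.18, 0.27, 0.23, 0.15 and 0.48 TPM in young, 0.74, 0.69, 0.72, 0.71 and 9.94 in aged and 0.32, 1.36, 0.66, 1.95 and 0.73 in treated libraries. Of the 31 tested genes it alone had every aged library above every young one, at 0.69 to 0.74 TPM in aged 1 to 4 against 0.15 to 0.48 in young, with aged 5 at 9.94. Cdc20 passed the filter only through aged 5, and besides it only treated 2 and treated 4 stood above 1 TPM. This order is therefore a description of low values. The difference for aged against young was 0.98 (SE 0.43, adjusted p = 0.503) and 0.45 without aged 5 (SE 0.23). Exons of Cdc20 overlap those of Elovl1, which stood at 29.1 to 54.9 TPM and was also highest in aged 5, so part of its reads cannot be told apart. Aurka, a spindle pole kinase, reached 3.80 TPM in aged 5 and 0.57 to 1.59 elsewhere.

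The 7 mitotic genes under the filter were also highest in aged 5. Ccnb2, a B-type cyclin, stood at 0.36, 0.26, 0.03, 0.14 and 0.19 TPM in young, 0.37, 0.43, 0.59, 0.55 and 5.61 in aged and 0.32, 1.26, 1.23, 1.68 and 0.62 in treated libraries. Aged 1 to 4 lay just above the young range, treated 1 lay inside it, and treated 2 to 5 lay above every aged library but aged 5. A row named Ccnb2-ps averaged 0.479 TPM over the 15 libraries, with a maximum of 1.33 and 0.71 in aged 5. How reads were divided between it and Ccnb2 was not tested. Plk1, the kinase of centrosome maturation and mitotic exit, stood at 0.07, 0.11, 0.17, 0 and 0.10 TPM in young, 0.22, 0.45, 0.17, 0.22 and 7.85 in aged and 0.16, 0.75, 0.72, 1.02 and 0.47 in treated libraries. Its ratio of aged 5 to the mean of aged 1 to 4, 29.6, was the largest of the 47 genes. Ccna2, Ccnb1, Aurkb and Bub1b, a cyclin of S phase and mitosis, a B-type cyclin, the kinase of the chromosomal passenger complex and a spindle checkpoint kinase, stood at 4.67 to 5.35 TPM in aged 5 and at most at 1.56 in any other library. Bub1, another checkpoint kinase, was listed at 0 in all 5 young libraries, and stood at 0 to 0.12 TPM in aged 1 to 4, at 0.64 in aged 5 and at 0.04 to 0.41 in treated ones.

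Spindle and chromosome segregation genes, with the proliferation marker Mki67, were highest in aged 5 in 7 of 8 cases. Top2a, the topoisomerase that untangles sister chromatids, stood at 0.33, 0.21, 0.46, 0.16 and 0.32 TPM in young, 0.27, 1.15, 0.61, 0.63 and 14.10 in aged and 0.81, 2.69, 2.00, 2.74 and 1.87 in treated libraries. Aged 5 was 21.2 times the mean of aged 1 to 4, and all 5 treated libraries lay above every young one, with treated 1 at 0.81 the lowest of them and below aged 2 at 1.15. Top2a had differences of 0.98 for aged against young (SE 0.50, adjusted p = 0.631), 0.20 for treated against aged (SE 0.50, adjusted p = 0.972) and 1.18 for treated against young (SE 0.50, adjusted p = 0.229). Birc5, or survivin, a subunit of the chromosomal passenger complex, stood at 0.25, 0.13, 0.18, 0.61 and 0.07 TPM in young, 0.61, 0.97, 0.24, 0.86 and 7.87 in aged and 0.78, 3.12, 2.06, 2.58 and 1.21 in treated libraries. Treated and young libraries did not overlap, and aged 1 to 4 at 0.24 to 0.97 overlapped both. For Birc5 the treated-against-young difference was 1.19 (SE 0.41, adjusted p = 0.135), and the aged-against-young one was 0.90 (SE 0.41, adjusted p = 0.546), or 0.41 without aged 5.

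Stmn1, a microtubule-destabilising protein, was the most abundant gene of the class at 4.76, 5.27, 6.32, 4.28 and 4.36 TPM in young, 5.38, 7.09, 6.15, 5.54 and 28.31 in aged and 3.38, 11.32, 7.66, 12.30 and 8.65 in treated libraries. Aged 5 stood at 4.69 times the mean of aged 1 to 4, treated 2 to 5 were above all young and aged 1 to 4 libraries, and treated 1 at 3.38 was the lowest of the 15. The remaining 5 genes were not tested. Mki67, which coats mitotic chromosomes, stood at 0.06 to 0.13 TPM in young, 0.14 to 0.71 in aged 1 to 4, 4.09 in aged 5 and 0.39 to 0.98 in treated libraries. The kinesin Kif11 and the spindle factors Tpx2 and Nusap1 likewise had every treated library above every young one, with aged 5 the highest at 1.47, 4.06 and 1.43 TPM. Cenpe, a kinetochore motor, was the exception, with its highest value, 0.78 TPM, in treated 2.

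The classes can be set side by side by the ratio of aged 5 to the mean of aged 1 to 4. Its median was 15.4 over the 10 mitotic genes and 11.8 over the 8 spindle genes. It was 5.44 over the 10 replication genes, 4.91 over the 6 chromatin genes, 1.67 over the 8 G1 genes and 1.66 over the 5 nucleotide genes. The counts of genes with at least 4 of the 5 treated libraries above every young library followed a like order, at 8 of 10 mitotic, 7 of 8 spindle, 4 of 10 replication, 2 of 6 chromatin, 1 of 5 nucleotide and 1 of 8 G1 genes. Together they were 23 of the 47 genes and 10 of the 31 tested, where 11.0% of all genes tested had this pattern. At least 4 treated libraries lay above each of aged 1 to 4 for 23 of the 47 genes and 12 of the 31 tested, against 7.87% of all genes tested. They included 7 of 10 replication, 6 of 10 mitotic and 6 of 8 spindle genes.

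In aged against young livers, the comparison that addresses age, 0 of the 31 genes passed limma's test at an adjusted p under 0.05, where 1.08% of the 12168 genes tested did, and the smallest adjusted p was 0.355. At an unadjusted p under 0.05, 5 of the 31 were higher in aged livers (Ccnd1, Pcna, Rrm2, Cdc20 and Birc5) and none lower, against 6.57% of all genes higher. The aged mean was higher for 29 of the 31, with a median log2 difference of 0.30, beside 59.2% of all genes and a median of 0.05. Without aged 5 these became 20 of the 31 and 0.11, beside 55.7% and 0.03, and 1 gene had an unadjusted p under 0.05. Aged 5 was the highest library for 25 of the 31, so a fall on leaving it out was fixed in advance for those. All 5 aged libraries lay above all 5 young ones for 3 of the 47 genes (Ccnb2, Cdc20 and Mki67), 1 of them tested, against 2.80% of all genes tested. The tested one, Cdc20, passed the filter only through aged 5. With no filter on low values, 0 of the 47 genes passed, and 0.339% of 27110 genes did.

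The comparison of treated with aged livers, which addresses the treatment if the treated mice were aged, likewise gave 0 of 31 genes, beside 0.00822% of all genes, with a smallest adjusted p of 0.925. No gene of the 31 had an unadjusted p under 0.05, where 4.41% of all genes did, in either direction. Means were higher in treated livers for 16 of the 31, with a median of 0.05, beside 49.7% of all genes and a median of −0.00051. With aged 5 left out, 27 of the 31 were higher with a median of 0.25, beside 54.3% of all genes and a median of 0.03. Aged 5 was the highest library for 25 of the 31, so leaving it out lowers their aged mean by construction. The values without it describe how far 1 library holds this comparison and are not a separate result. Then 7 genes, Mcm3, Mcm6, Cdt1, Rrm2, Cdk1, Top2a and Birc5, were higher at an unadjusted p under 0.05, against 3.90% of all genes, and the smallest adjusted p of the 31 was 0.864. The largest of these differences were 0.84 for Top2a (SE 0.23), 0.78 for Birc5 (SE 0.26) and 0.74 for Mcm3 (SE 0.22). None of the 47 genes had all treated libraries above all aged ones, against 0.403% of all genes tested. Without the filter, 0 of 47 passed beside 0.00369% of all genes.

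Treated livers set against young ones, with the age of the treated mice not given, again gave 0 of 31 genes, beside 2.91% of all genes, with Pcna the smallest at an adjusted p of 0.111. The calls over all genes were 265 higher and 89 lower in treated livers, and 252 and 322 under quantile scaling. At an unadjusted p under 0.05, 7 genes were higher (Ccnd1, Pcna, Rrm2, Tyms, Hmgb2, Top2a and Birc5), against 12.7% of all genes. The treated mean was higher for 27 of the 31, with a median of 0.37 beside 57.4% of all genes and a median of 0.06. Under quantile scaling this count was 19 and the median 0.13, and that scaling moved the median of all genes from 0.06 to −0.07. Treated and young libraries did not overlap for 9 of the 47 genes (Cdc6, Rrm2, Bub1, Mki67, Top2a, Kif11, Tpx2, Nusap1 and Birc5), all higher in treated. Of these 3 were tested, against 3.14% of all genes tested. Among the tested ones, Top2a and Birc5 passed the filter on the strength of aged and treated livers. With no filter, 0 of 47 passed, beside 0.693% of all genes.

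This comparison does not use the aged libraries, yet its outcome depended on aged 5, which enters the shared estimate of the spread. Filtered leave-out fits kept the filter set over all 15 libraries, so a gene could stay in through a library then left out. Birc5 and Cdc20 did so, since their means fall below 1 TPM without aged 5. Top2a and Birc5 had entered the test on the strength of aged and treated livers, so counts that hold them lean toward treated. Without aged 5, 4 of the 31 genes passed, beside 4.02% of all genes. They were Top2a (1.18, SE 0.22, adjusted p = 0.00697), Birc5 (1.19, SE 0.24, adjusted p = 0.0115), Rrm2 (0.81, SE 0.20, adjusted p = 0.0339) and Mcm3 (0.75, SE 0.20, adjusted p = 0.0489). Tyms passed alone when young 4 was left out. With all 15 libraries, Birc5 passed with a pseudocount of 0.1, and Tyms and Birc5 with library weights. In a fit of the young and treated libraries alone, Top2a (adjusted p = 0.0132) and Birc5 (adjusted p = 0.0237) passed, beside 2.34% of all genes. Leaving out young 4, aged 5 and treated 1 together gave 10 genes beside 12.1% of all genes, adding Pcna, Tyms, Hmgb2, Cdk1, Cdc20 and Stmn1 to those 4, with differences of 0.65 to 1.45. In a pair of settings chosen after seeing the data, the same leave-outs were made with no filter. Without aged 5, 5 of the 47 genes passed beside 1.11% of all genes, namely Cdc6, Mki67, Top2a, Tpx2 and Birc5, and without the 3 libraries 18 did beside 4.15%. Libraries chosen for their level are not a random choice, so these counts describe how far 3 libraries hold the result. The 3 comparisons share their groups and are not independent of each other.

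**Figure D4:**
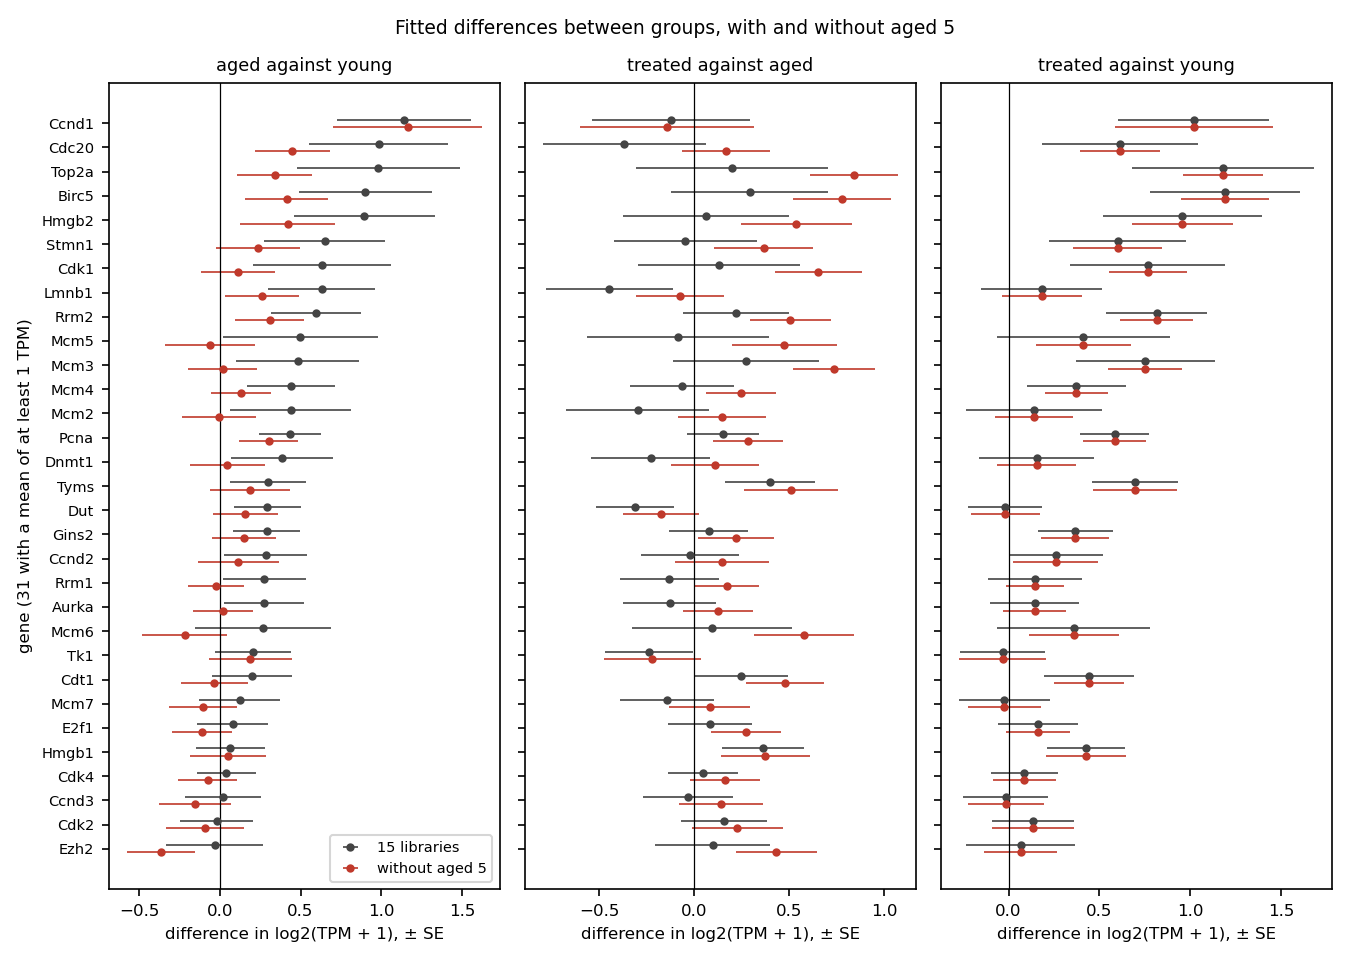
Log2 difference with its standard error for the 31 tested genes in the 3 comparisons, with all 15 libraries (grey) and without aged 5 (red). In aged against young the red points lie nearer to 0 than the grey ones for most genes. In treated against aged the red points lie to the right of the grey ones for most, as for Mcm5 at −0.09 (grey) and 0.47 (red).

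Markers of lymphocytes stood high in several of the same libraries. The 15 T and NK cell markers summed to 14.4 to 24.1 TPM in young, 23.4 to 125 in aged 1 to 4, 360 in aged 5, 15.9 in treated 1 and 120 to 159 in treated 2 to 5. The 10 B cell markers summed to 5.03 to 6.35 TPM in young, 6.62 to 44.0 in aged 1 to 4, 212 in aged 5 and 9.68 to 49.3 in treated libraries. Aged 5 held the highest value for 11 of the 15 T and NK and 8 of the 10 B cell markers, and none of these 25 was at 0 there. Over the same libraries, the 18 mitotic and spindle genes summed to 9.13 to 10.8, 10.8 to 14.9, 123, 11.2 and 21.9 to 33.9 TPM. The order was not the same throughout: aged 2 had a T and NK mean of 2.30 on the log2(TPM + 1) scale, within the 2.24 to 2.52 of treated 2 to 5, but a mean of 0.65 for the mitotic and spindle genes against 0.94 to 1.20 in those 4 libraries. Treated 1 was low in both. The means of the monocyte and macrophage markers were 1.62 to 2.67 in young, 2.81 to 3.14 in aged 1 to 4, 3.78 in aged 5 and 2.55 to 4.34 in treated libraries. Plasma cell markers had means of 2.23 to 2.75 in young, 3.85 to 4.81 in aged 1 to 4, 6.02 in aged 5 and 3.31 to 5.82 in treated libraries. Hepatocyte markers had means of 10.95 to 11.54 in all 15 libraries. The part of these cells in the levels of the cell cycle genes was not tested.

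**Figure D5:**
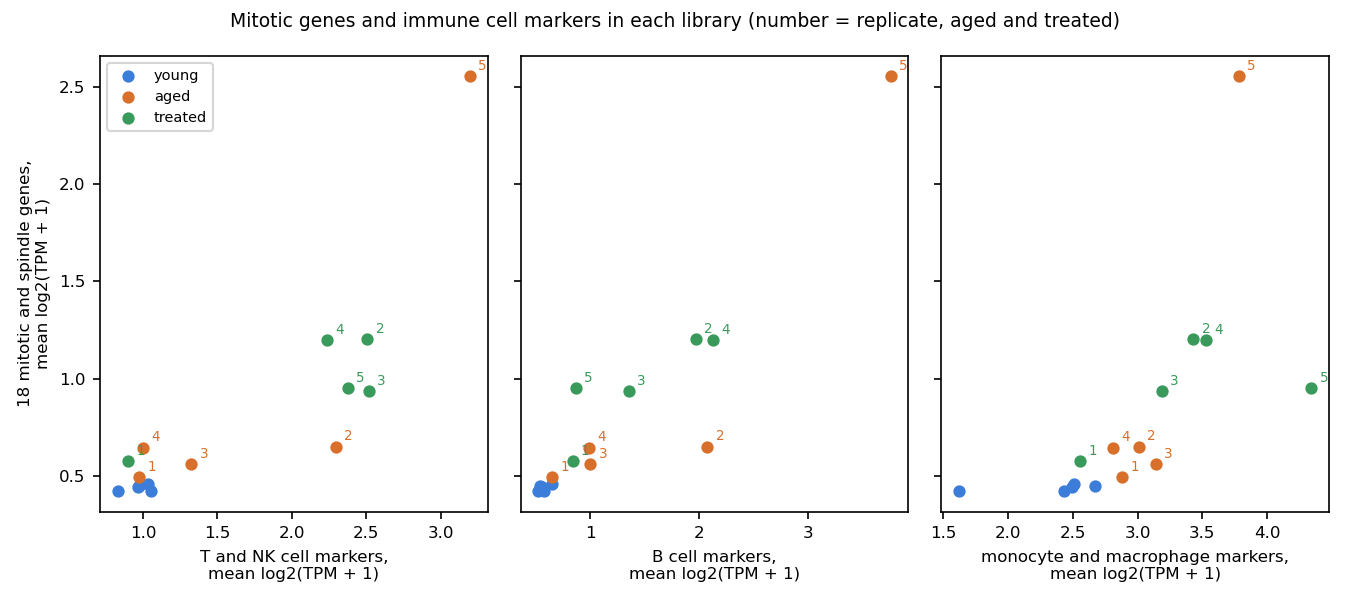
Mean log2(TPM + 1) of the 18 mitotic and spindle genes (vertical axis) against the mean of the T and NK, B, and monocyte and macrophage markers (horizontal axes) in each library. Aged 5 lies at the upper right in the lymphocyte panels, treated 2 to 5 lie between it and the young libraries, and aged 2 lies to the right of the other aged libraries 1 to 4 at 2.30 for T and NK markers but no higher than 0.65 on the vertical axis.

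Other genes of the same pathways were read from 3 lists outside the 47. Of 98 genes of replication and repair, cycle regulation and mitosis, 37 were tested and 0 passed in any comparison. At an unadjusted p under 0.05, aged against young gave 5 (3 higher and 2 lower), beside 8.72% of all genes in either direction. Treated against aged gave 2 (1 higher and 1 lower), beside 4.41%, and treated against young gave 6 (4 higher and 2 lower), beside 17.8%. Aged 5 was the highest library for 75 of the 98, tested or not, where it was so for 11.1% of all genes tested. Only 37 of the 98 passed the filter behind that share, so these figures are not on like sets. Fen1, the flap endonuclease of lagging strand synthesis, stood at 7.32 TPM in aged 5 and at 1.01 to 3.19 elsewhere (log2 difference for aged against young 0.47, adjusted p = 0.785), and Rfc3, a clamp loader subunit, had a difference of 0.35 (adjusted p = 0.791). Cdca3, which promotes mitotic entry, stood at 5.62 TPM in aged 5 and at 0.51 to 2.55 elsewhere. Some genes ran the other way. Ccnf, an F-box cyclin, stood at 5.05, 3.95, 4.60, 1.36 and 4.08 TPM in young, 1.50, 1.40, 1.54, 1.98 and 3.07 in aged and 0.77, 2.22, 2.93, 2.30 and 1.92 in treated libraries, and its aged-against-young difference was −0.69 (adjusted p = 0.384). Cenpm, a centromere protein, stood at 3.69 to 8.81 TPM in young, 0.98 to 6.84 in aged and 0.80 to 5.37 in treated libraries, with a treated-against-young difference of −1.21 (adjusted p = 0.0914). Rb1, the brake on E2F, stood at 0.56 to 1.14 TPM in young, 0.89 to 1.77 in aged and 1.25 to 1.77 in treated libraries, with a difference of 0.35 for aged against young (adjusted p = 0.558).

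Inhibitors of the cyclin-dependent kinases are used as marks of senescent cells. Cdkn2a, whose locus encodes p16 and p19ARF, stood at 0.23, 0, 0.14, 0 and 0.08 TPM in young, 2.97, 3.27, 3.18, 4.01 and 14.59 in aged and 1.47, 5.49, 2.47, 4.63 and 14.76 in treated libraries. It was higher in every aged and every treated library than in any young one, by 2.37 (adjusted p = 0.0114) and 2.33 (adjusted p = 0.00895), and treated differed from aged by −0.03 (adjusted p = 0.996). Aged 5 and treated 5 were its highest libraries. Cdkn1a, which encodes p21, stood at 12.23 to 58.59 TPM in young, 12.31 to 30.33 in aged and 10.75 to 39.31 in treated libraries, with a difference of −0.67 for aged against young (adjusted p = 0.755).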

How the data were processed

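Whole-liver RNA was extracted with TRIzol and treated with DNase, per the labels' protocols, and sequenced as 15 libraries, 5 in each of 3 groups. The authors deposited TPM per gene. fastp, HISAT, RSEM and GRCm39 are named in the submitters' processing notes, and their versions, the annotation release and any use of strand are not given in the sources used here. The table also holds 3 columns of group means, which were not used. TPM keeps no depth, so depth is unknown and no counting interval is given, and a value of 0 is only listed as 0. The 3 groups were compared on log2(TPM + 1) with limma 3.58.1 in R 4.3.3, with a mean-variance trend and robust variances, over the 12168 genes whose mean reached 1 TPM, in 1 model of all 15 libraries. P-values were adjusted by Benjamini and Hochberg over all genes tested, and an adjusted p under 0.05 was a call. The code was tested on simulated data. The labels do not say that libraries came from separate animals, so p-values measure the spread between libraries, which may be technical.

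The 47 genes, their roles and the other lists were chosen with earlier results of these data known. Values in every library are given for genes that, within a role, had the highest mean or the largest aged-minus-young or treated-minus-aged difference, Mcm3, Ccnb2 and Plk1 being added after their values were seen. Within the 3 other pathway lists, the 2 genes with the smallest p for aged against young are named, with Ccnf printed in every library, and the inhibitors Cdkn1a and Cdkn2a are added for their role, with Cdkn2a in every library. GENCODE M21 (GRCm38) was used only for which genes share a place, and promoters are RefSeq windows on GRCm38.p6. Alternatives tried were the pseudocount, the filter, quantile and median-ratio scaling, library weights, a fit of 2 groups alone, a replicate block and leaving out libraries. Python 3.11.15, pandas 2.3.3 and matplotlib 3.10.9 were used for tables and plots.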

Additional observations from a re-analysis of the deposited data

Results flagged for a closer look

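Of 87 groups of 5 values examined with Dixon's ratio, the gap from the most extreme library to its neighbour divided by the group's range, 20 passed the critical value of 0.71. Chance passes about 1 in 20 groups of values that were not selected, and genes and lists here share libraries. The flagged genes other than Stmn1 had been picked for a large difference between groups. A single extreme library can make such a difference, so that rate does not apply to them. Aged 5 was the library in 14 of the 20 flagged groups. Among the named genes it stood above the other aged libraries in Cdc20 (ratio 0.984), Mcm5 (0.856), Stmn1 (0.844), Mcm2 (0.817), Top2a (0.787), Birc5 (0.765) and Hmgb2 (0.737). In the means over a class it did so for the mitotic genes (0.926), the mitotic and spindle genes together (0.925), the spindle genes (0.888), all 47 genes (0.868), replication (0.866), chromatin (0.811) and nucleotide supply (0.723). Young 4 stood below the other young libraries in 5 means, those of all 47 genes (0.932), G1 (0.84), replication (0.786), monocyte and macrophage markers (0.774) and plasma cell markers (0.745). Treated 1 stood below the other treated libraries in the mean of the T and NK cell markers (0.827).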

How the results depend on the processing

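For the 47 genes, aged against young and treated against aged gave 0 calls under every alternative run, with 1 library left out at a time included. Some came near in treated against aged without young 4, aged 5 and treated 1, libraries chosen for their level. There limma gave Mcm3 a difference of 0.92 (SE 0.14, adjusted p = 0.0508) and Top2a one of 1.01 (SE 0.19, adjusted p = 0.0605). Treated against young gave 0 calls with the settings of the report, 1 with a pseudocount of 0.1 (Birc5), 2 with the groups fitted alone (Top2a and Birc5), 2 with library weights (Tyms and Birc5) and 10 without young 4, aged 5 and treated 1. With no filter, alternatives chosen after seeing the data, it gave 5 without aged 5 and 18 without those 3 libraries. With 1 library left out at a time it ranged from 0 to 4, the 4 being without aged 5. The median log2 difference over the 31 genes was smaller than the spread between libraries (SD 0.41, which includes aged 5) in all 3 comparisons, so that spread says nothing of its stability. With 1 library left out it ranged from 0.11 to 0.49, −0.13 to 0.25 and 0.22 to 0.44 for the 3 comparisons in the order above. The direction for treated against aged therefore depended on the library left out.

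Over all genes, aged against young gave 132 calls, 76 with a filter at 5 TPM, 244 with library weights, 66 with no filter and without aged 5, and 79 to 163 with 1 library left out. Treated against aged gave 1 call, 0 with a filter at 5 TPM or at a median of 1 TPM, 3 with no filter and without the 3 libraries, and 1 to 2 with 1 left out. Treated against young gave 354 calls, 188 with no filter, 217 with a filter at 5 TPM, 574 with quantile scaling, 591 with median-ratio scaling, 1538 with library weights, 1476 without the 3 libraries and 1126 with no filter as well. With 1 library left out it gave 180 (without treated 2) to 1185 (without young 4). Outside young 4, the leave-outs that moved it by over 1.5 times were treated 1 (597), treated 2 (180), treated 5 (194), young 2 (217), young 3 (208) and young 5 (210). The cause was not tested.

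A replicate block left the calls among the 47 genes at 0 in all 3 comparisons and gave 116, 1 and 373 calls over all genes. Deviations of same-numbered libraries correlated at −0.249 to 0.309, which does not settle whether the numbers pair the samples. The labels do not say. TPM keeps no depth, so the limit it sets on genes below 1 TPM is unknown.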
